A study of Danio rerio with 24 samples.

Results

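The regions described here are the shores of constitutively unmethylated regions of the zebrafish genome, that is, the DNA that flanks stretches with almost no CpG methylation in every cell type of the study. The genome was cut into 500 bp tiles, a tile was given a methylation level in each library where at least 3 of its CpGs had at least 5 reads in all 4 libraries, and neighbouring tiles below 15% in all 4 libraries were joined into runs. Shore tiles were the tiles outside runs that lay up to 4 tiles from the nearest run, numbered by distance from tile 1, which touches the run, to tile 4, which ends 2000 bp away. By this rule 88746 of 1742304 tiles with a level were shore tiles (5.09%), namely 19495 at tile 1, 22033 at tile 2, 23274 at tile 3 and 23944 at tile 4, around 24003 runs made of 49888 tiles. The remaining 1603670 tiles lay outside runs and shores and are called outside tiles. The members were thus chosen on the measured levels of the same 4 libraries, and the gradient from low to high methylation across a shore follows from that choice.

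Whole-genome bisulfite sequencing (WGBS), in which unmethylated cytosines are converted and read as thymine, was used to measure methylation in 4 cell types on the path from neural crest to pigment cells. Melanophores, the black pigment cells, and iridophores, the reflective pigment cells, were isolated from 4-5 dpf larvae of the mlphaj120 strain, which carries a mutation in melanophilin, a protein of melanosome transport. Late neural crest cells (NCCs) at 24 hpf and early NCCs at 15 somites were GFP-positive cells sorted from Tg(crestinA:EGFP) embryos, in which a crestin element drives EGFP, so the NCC populations are those in which that element is active. Cell type and strain change together between NCCs and pigment cells and cannot be told apart. Each cell type is represented by 1 library in which the authors combined 2 biological replicates, so there is no spread between replicates, no test between cell types was run for the values below, and the intervals given cover counting error only. Cell identity was not checked against marker genes here, because no gene annotation of the genome build was used.

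In vertebrate genomes most CpGs are methylated, and the main exceptions are short CpG-rich stretches, many of them at promoters, that stay unmethylated in most cell types. Methylation rises over a short distance at their borders, and the flanking DNA, called the shore, is known as a place where methylation differs between tissues. Unmethylated DNA is kept free of methylation by bound transcription factors, by proteins that recognise unmethylated CpGs and by TET enzymes, while DNMT enzymes add and maintain methylation around it.

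Values are given for tiles or for CpGs averaged over many runs, since single CpGs had few reads. Covered CpGs had on average 25.2 reads in iridophores and 35.2 in melanophores, against 30.3 in late NCCs and 24.0 in early NCCs. Of 23256360 CpGs covered in any library, 16909511 (72.7%) had at least 5 reads in all 4. A tile at tile 1 held a median of 162 reads in iridophores, 225 in melanophores, 194 in late NCCs and 131 in early NCCs, against 212, 298, 254 and 180 at outside tiles. Runs were short: 8619 were 1 tile long, 13241 were 2 or 3 tiles, 2048 were 4 to 9 tiles and 95 were 10 tiles or more, with the longest spanning 11.5 kb.

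The share of shore positions with a level rose with distance. Of 46383 positions at tile 1, 42.0% had a level, against 52.0% of positions at tile 2, 57.8% at tile 3 and 61.6% at tile 4. Shore tiles held a mean of 7.55 passing CpGs at tile 1, 7.84 at tile 2, 8.22 at tile 3 and 8.51 at tile 4, against 9.23 at outside tiles and 14.9 in run tiles. The rule sets part of both gradients, because a tile without a level ends a run and so takes a tile 1 position, while a measured low tile is joined to the run. A shore position without a level is not described by any value below.

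Methylation rose steeply over the first 500 bp. At tile 1 the mean level was 56.3% in iridophores, 56.3% in melanophores, 57.1% in late NCCs and 58.1% in early NCCs. At tile 2 it was 80.6% in iridophores, 80.9% in melanophores, 83.8% in late NCCs and 84.8% in early NCCs. At tile 4 the level was 83.1% in iridophores, 83.5% in melanophores, 87.1% in late NCCs and 88.2% in early NCCs, close to the 83.9%, 84.5%, 88.0% and 89.0% of outside tiles. Run tiles, by the rule, were near 0, with means of 2.13% in iridophores, 1.963% in melanophores, 1.64% in late NCCs and 1.75% in early NCCs. Tile 1 was the most heterogeneous zone, with quartiles of 28.6% and 83.4% in iridophores. Intermediate levels of 15 to 75% were found at tile 1 in 58.0% of tiles in iridophores, 56.3% in melanophores, 51.2% in late NCCs and 50.9% in early NCCs. Among outside tiles such levels were found in 17.4% in iridophores, 16.9% in melanophores, 10.6% in late NCCs and 9.62% in early NCCs.

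Single CpGs averaged in 100 bp bins placed the rise more finely. In the last 100 bp inside a run the mean level was 4.73% in iridophores, 4.49% in melanophores, 4.01% in late NCCs and 4.14% in early NCCs. In the first 100 bp outside it was 21.5% in iridophores, 21.2% in melanophores, 20.5% in late NCCs and 20.96% in early NCCs. Between 300 and 400 bp it reached 70.4% in iridophores, 70.3% in melanophores, 71.6% in late NCCs and 72.7% in early NCCs.

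**Figure D1:**
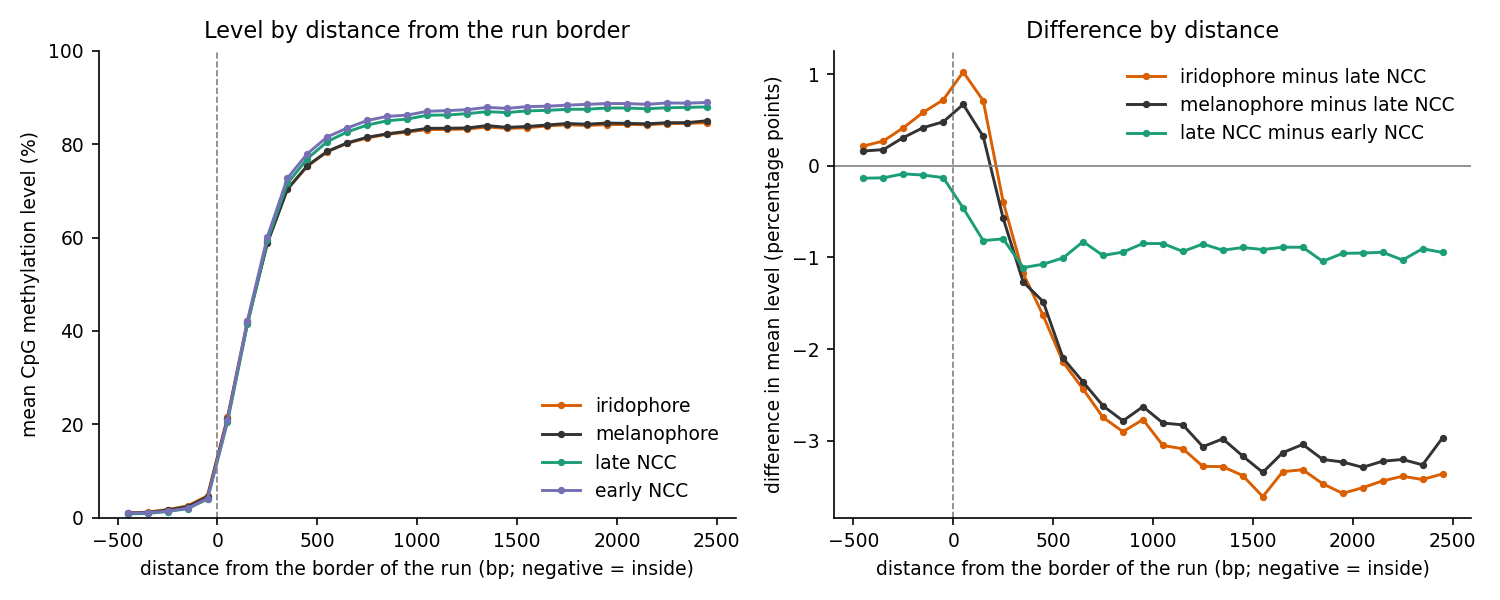
Mean CpG methylation level (left, percent) and difference in mean level (right, percentage points) in 100 bp bins by distance from the border of a run, for the iridophore, melanophore, late NCC and early NCC libraries. The levels rise together over the first 500 bp, and the pigment cell libraries lie above late NCCs up to 200 bp outside the border and below them from 200 bp on.

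The order of the cell types turned over within this rise. In the first 100 bp outside the border the mean level was higher in iridophores than in late NCCs by 1.02 percentage points and higher in melanophores by 0.670 points. Between 200 and 300 bp the difference was -0.393 points for iridophores and -0.572 points for melanophores. Between 1900 and 2000 bp it was -3.57 points for iridophores and -3.23 points for melanophores. The small positive difference was also present inside the runs, where it was 0.721 points for iridophores and 0.480 points for melanophores in the outermost 100 bp. The paper reports that bisulfite conversion was incomplete and varied slightly between libraries. Its part in differences of this size was not tested. Late NCCs were below early NCCs in every bin plotted, with a difference of -0.462 points in the first 100 bp outside and of -0.955 points at 1900 to 2000 bp.

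At the level of tiles, the mean fall in pigment cells was smaller next to a run than further away, where tiles start higher. With outside tiles weighted to the early NCC levels of tile 1, this order turned round. Their weighted mean difference from late NCCs was 0.0899 points in iridophores and 0.175 points in melanophores. The values that follow are not matched for starting level. The mean difference from late NCCs at tile 1 was -0.831 points in iridophores and -0.865 points in melanophores. It was -3.15 and -2.85 points at tile 2, -3.71 and -3.28 points at tile 3 and -4.03 and -3.62 points at tile 4 in iridophores and melanophores, against -4.01 and -3.46 points at outside tiles. On each of the 25 chromosomes the tile 1 mean lay above the outside mean, in iridophores and in melanophores. No such gradient was seen between the NCC stages, where late NCCs minus early NCCs was -1.001 points at tile 1, -1.05 points at tile 4 and -1.08 points at outside tiles. The pigment cells differed little from each other, with a mean of 0.0345 points at tile 1 for iridophores minus melanophores and -0.552 points at outside tiles. The sign of that tile 1 value changed in 4 of the alternative settings.

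Changes of at least 20 percentage points were counted as calls. Over all shore tiles, 1118 were higher in iridophores than in late NCCs by that much and 4550 were lower. These are 1.26% and 5.13% of shore tiles, and the shares over all tiles outside runs, shores included, were 0.355% higher and 4.9% lower. In melanophores 845 shore tiles were higher than in late NCCs and 4615 lower, 0.952% and 5.20% of shore tiles, against 0.303% and 4.86% of all tiles outside runs. From early to late NCCs 374 shore tiles (0.421%) were higher in late NCCs and 836 (0.942%) lower, against backgrounds of 0.185% and 0.485%. Between the pigment cells 1379 shore tiles (1.55%) were higher and 1354 (1.53%) lower in iridophores, against backgrounds of 1.45% and 1.57%. For each pigment cell against late NCCs, losses in shores were thus close to their background share and gains were above theirs. From early to late NCCs both were above it, and between the pigment cells both were close to it. These shares are not matched for starting level. When outside tiles were weighted to the early NCC levels at each distance, the order of gains in pigment cells turned round at tile 1. Gains at tile 1 were then 2.66% against 5.62% outside in iridophores, and 1.93% against 4.43% in melanophores. At tiles 2 to 4 gains stayed above the weighted outside share in both.

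Gains were concentrated at tile 1. Of its tiles, 519 were higher in iridophores than in late NCCs (2.66%, Wilson 95% interval 2.45 to 2.90%) and 377 were higher in melanophores (1.93%, 1.75 to 2.14%), against 0.305% and 0.267% of outside tiles. These shares were 8.74 and 7.25 times those of outside tiles, and the ratio declined to 4.14 and 3.54 at tile 2, 2.75 and 2.61 at tile 3 and 1.73 and 1.53 at tile 4. The share of gains at tile 1 lay above that of outside tiles on all 25 chromosomes in both pigment cells. These shares are not matched for starting level. A tile low at both NCC stages can be at tile 1 only where a pigment cell library reached 15%. Weighted to the early NCC levels of tile 1, the outside shares of gains were 5.62% in iridophores and 4.43% in melanophores. Outside tiles below 15% in early NCCs were likewise outside a run only where another library reached 15%. Losses at tile 1 were a little less frequent than outside, at 4.16% in iridophores and 4.05% in melanophores, against 4.88% and 4.84% of outside tiles. At tiles 2 to 4 losses ran from 5.27% to 5.64% in iridophores and from 5.38% to 5.75% in melanophores. The lower share of losses at tile 1 was not stable, since it was above the outside share when a tile's level was the median of its CpGs (1.48 times in iridophores and 1.44 times in melanophores), when distance was counted over measured tiles only (1.16 times in both) and when 10 points counted as a change (1.02 and 1.05 times).

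**Figure D2:**
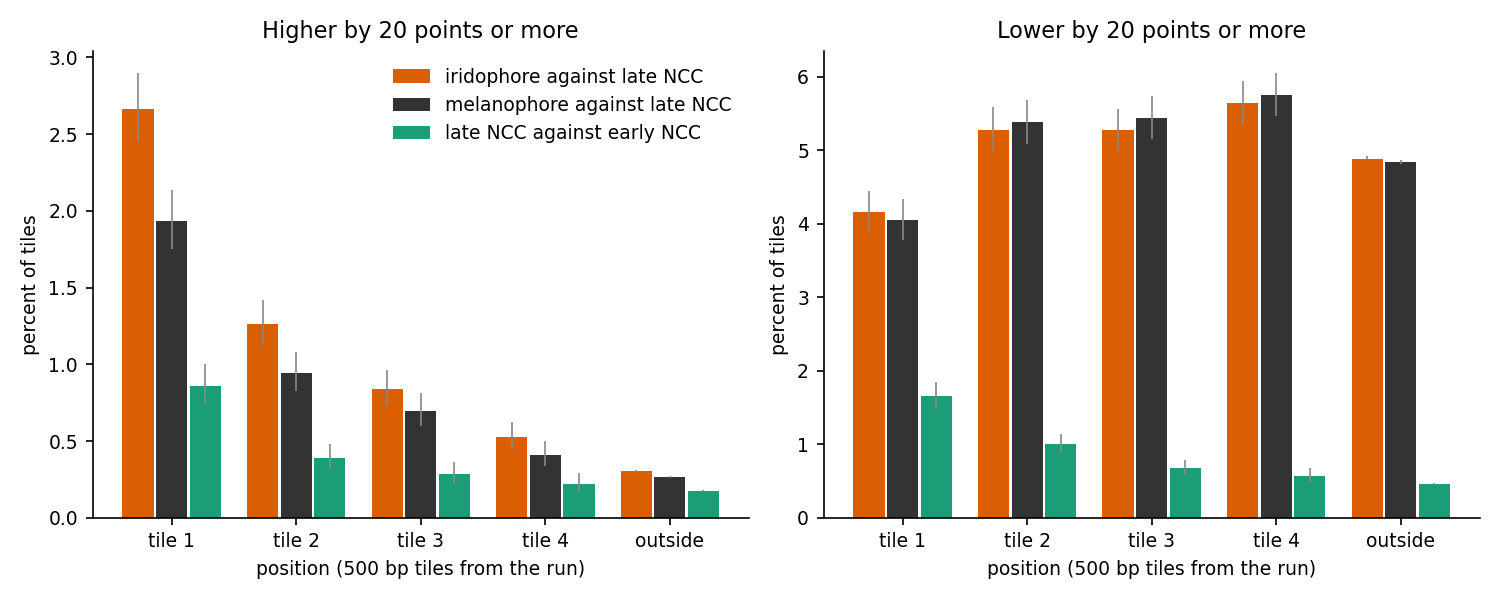
Percent of tiles higher (left) and lower (right) by at least 20 percentage points at tile 1 to tile 4 and at outside tiles, for iridophores against late NCCs, melanophores against late NCCs and late NCCs against early NCCs. Grey lines are Wilson 95% intervals of the share. Gains decline with distance, from 2.66% at tile 1 to 0.305% outside in iridophores.

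From early to late NCCs both directions were more frequent beside a run. Late NCCs were higher at 168 tiles of tile 1 (0.862%) and lower at 322 (1.65%), against 0.172% and 0.460% of outside tiles, ratios of 5.01 and 3.59. With 3 to 5 CpGs these shares were 1.52% and 2.57% at tile 1, against 0.380% and 0.714% outside. With 11 to 20 CpGs they were 0.311% and 0.706%, against 0.0575% and 0.330%. Starting level and reads were not matched in this comparison, and the part of counting error was not tested. Between iridophores and melanophores, tile 1 was called less often than outside tiles, with 1.33% of tiles higher and 1.13% lower in iridophores, against 1.45% and 1.57% of outside tiles. This order turned round with CpG medians, where the tile 1 share was 1.45 times the outside share for higher and 1.37 times for lower tiles, with a change of 10 points (1.34 and 1.07 times) and with distance over measured tiles (1.17 and 1.06 times), and for higher tiles with runs of at least 2 tiles (1.03 times).

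A stricter count, added after the data were seen, required both pigment cell libraries to differ from both NCC libraries by at least 20 points in the same direction. Such gains were found in 114 tiles at tile 1 (0.585%), against 0.0756% of outside tiles, and in 262 shore tiles in all, against a background of 0.0871% of all tiles outside runs. Such losses were found in 346 tiles at tile 1 (1.77%), against 2.44% of outside tiles. In all, 2274 shore tiles had such losses (2.56%), against a background of 2.44%. Starting level was not matched for this count. A tile below the run threshold at both NCC stages is a shore or outside tile only through a pigment cell library. A tile below it in both pigment cells is one only through an NCC library. The shares are therefore given as a description.

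How often a tile gained methylation depended on the level at which it started, and tile 1 starts low. Tiles were therefore grouped by their level in early NCCs, a library that enters neither side of the differences between pigment cells and late NCCs. Of tiles below 10% in early NCCs, 13.0% of 1095 tiles at tile 1 were higher in iridophores than in late NCCs (11.1 to 15.1%), against 21.7% of 1216 outside tiles (19.5 to 24.1%). For melanophores the shares were 4.02% at tile 1 (3.01 to 5.35%) and 15.3% at outside tiles (13.4 to 17.4%). Between 20 and 30% in early NCCs, gains were found in 3.11% of tiles at tile 1 and 12.4% of outside tiles in iridophores, and in 2.24% and 10.2% in melanophores. A tile below 10% in early NCCs is outside a run only where another library reached 15%. The bin below 10% thus holds tiles picked for a rise in another library, at tile 1 and outside alike. Tiles between 20 and 30% in early NCCs were outside runs through that library, whatever their other levels.

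At the same low starting level, gains were thus less frequent at tile 1 than at outside tiles. At higher starting levels the order was the reverse. Between 70 and 80% in early NCCs, gains were found in 1.32% of tiles at tile 1 against 0.485% of outside tiles in iridophores, and in 1.28% against 0.454% in melanophores. Losses from such levels were also more frequent at tile 1, with 5.50% against 3.92% in iridophores and 4.56% against 3.63% in melanophores. Among tiles at 90% or more in early NCCs, losses were found in 6.21% of tile 1 and 5.48% of outside tiles in iridophores, and in 6.46% and 5.52% in melanophores.

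When the outside tiles were weighted to the distribution of early NCC levels at tile 1, the comparison of gains turned round. The weighted outside share of gains was 5.62% for iridophores, against 2.66% measured at tile 1, and 4.43% for melanophores, against 1.93%. The weighted outside share of losses was 3.80% for iridophores, below the 4.16% at tile 1, and 3.62% for melanophores, below 4.05%. The weighted outside mean difference was 0.0899 points for iridophores and 0.175 points for melanophores, against -0.831 and -0.865 points at tile 1. Weighting by CpG number in addition gave outside gains of 5.96% and 4.72%. At tile 2 the weighted outside share of gains was 0.913% for iridophores and 0.747% for melanophores, below the 1.26% and 0.944% measured, and that of losses was 4.72% and 4.64%, below 5.28% and 5.38%. The weighted shares of gains draw largely on the low bins, whose tiles passed the rule only through a library where they were high, so the values at equal starting level are given as a description. At tile 2 the order also varied by bin. Between 20 and 30% in early NCCs, gains at tile 2 were found in 8.11% of tiles against 12.4% of outside tiles in iridophores and in 9.01% against 10.2% in melanophores. Between 40 and 50% they were found in 12.1% against 6.22% in iridophores and in 10.9% against 5.15% in melanophores.

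**Figure D3:**
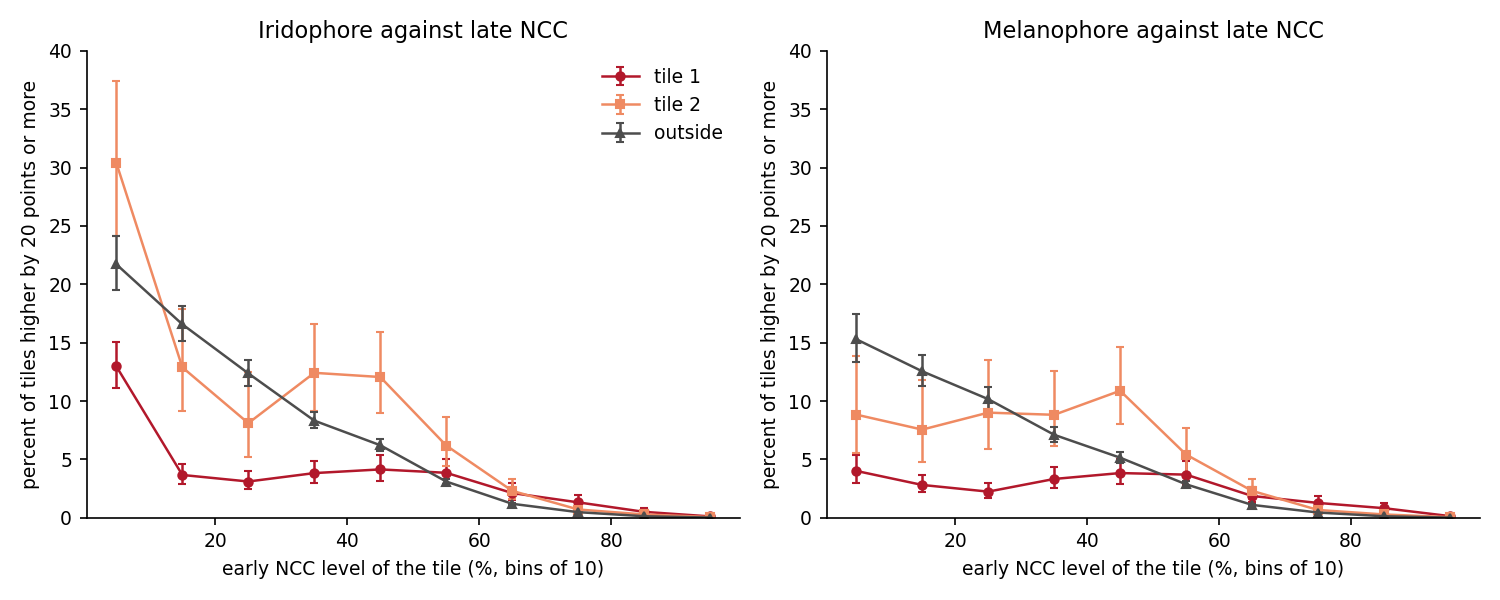
Percent of tiles higher by at least 20 percentage points in iridophores (left) and melanophores (right) than in late NCCs, by the level of the tile in early NCCs in bins of 10%, for tile 1, tile 2 and outside tiles. Bars are Wilson 95% intervals. Below 50% the tile 1 points lie under the outside points, and from 50% on they lie above them.

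The tiles just past the threshold show how narrow the difference between a run and a shore can be. Of run tiles, 649 had a highest level between 14 and 15% (median 14.5%), and 357 tiles at tile 1 had a highest level between 15 and 16% (median 15.5%). In these 357 tiles the median level was 13.98% in iridophores, 12.9% in melanophores, 10.4% in late NCCs and 12.005% in early NCCs.

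Of the 19495 tiles at tile 1, 16229 (83.2%) were at 15% or more in every library, and the others were below 15% in 1, 2 or 3 of them. The rule fixes that no shore tile is below 15% in all 4 but treats the libraries alike otherwise. Tiles low in the pigment cell pair only numbered 279, and tiles low in the NCC pair only numbered 543. Among outside tiles the order was the reverse, with 1580 low in the pigment cell pair only and 901 low in the NCC pair only. Tiles low in all libraries but iridophores numbered 496, in all but melanophores 225, in all but late NCCs 158 and in all but early NCCs 354. Among outside tiles the same patterns numbered 233 for all but iridophores, 165 for all but melanophores, 151 for all but late NCCs and 215 for all but early NCCs, so the iridophore library was the most frequent lone exception in both zones. A tile low in 3 libraries is a shore tile only because the other one reached 15%, and nothing is read from these counts beyond their size.

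The levels behind these patterns were mostly close to the threshold. In the 543 tiles low in the NCC pair only, the median level was 20.9% in iridophores, 19.2% in melanophores, 9.80% in late NCCs and 8.56% in early NCCs. In the 279 tiles low in the pigment cell pair only, it was 9.72% in iridophores, 9.99% in melanophores, 19.6% in late NCCs and 21.9% in early NCCs. In the 496 tiles low in all but iridophores, it was 17.7% in iridophores, 10.4% in melanophores, 4.55% in late NCCs and 3.72% in early NCCs. Of those 496 tiles, 73.0% lay between 15 and 20% in iridophores.

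**Figure D4:**
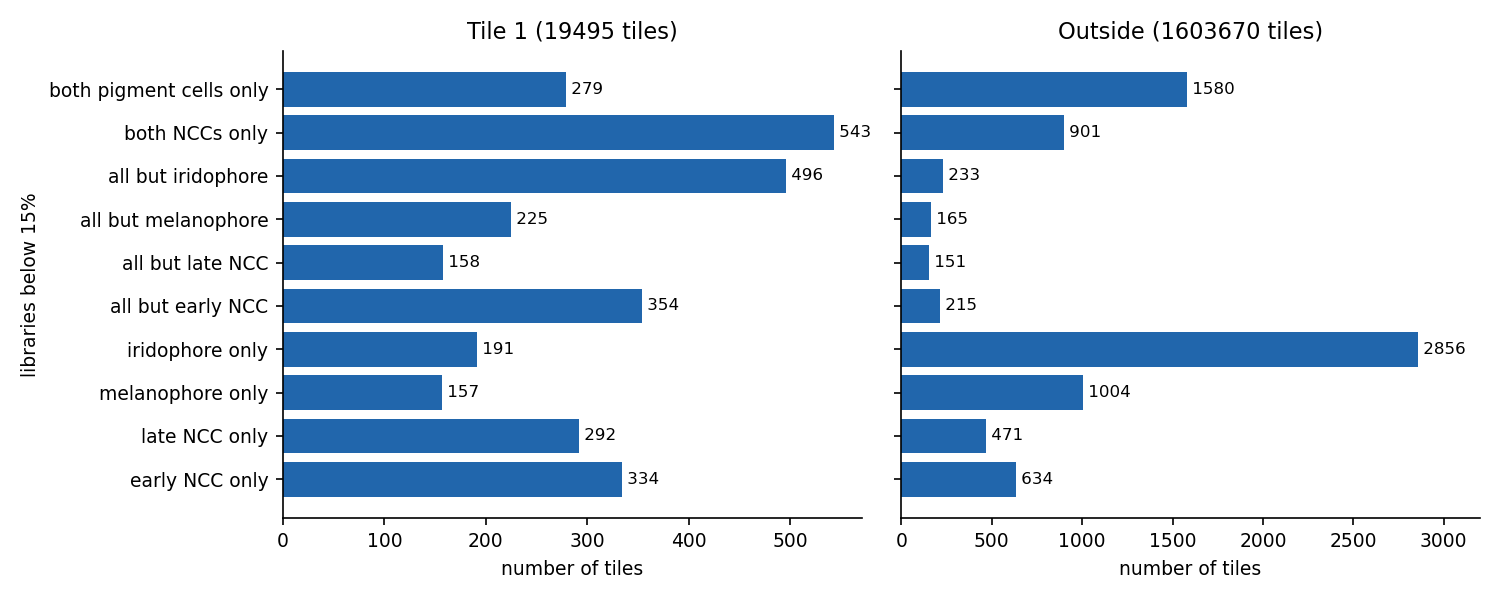
Number of tiles below 15% in the libraries named on the vertical axis and at 15% or more in the others, at tile 1 (left) and at outside tiles (right, own scale). At tile 1 the bar for both NCCs only (543) is longer than that for both pigment cells only (279), and at outside tiles it is shorter (901 against 1580).

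The border itself was located on each side of each run as the middle CpG of the first 3-CpG window that reached a mean of 50%, going outward from the middle of the outermost run tile. An edge was found within 2500 bp in all 4 libraries at 39974 of 48006 sides (83.3%). Distances count from the border of the outermost run tile. The median edge lay at 471 bp in iridophores, 470 bp in melanophores, 467 bp in late NCCs and 461 bp in early NCCs. Most edges did not move, and the same CpG was the edge as in late NCCs at 77.7% of sides in iridophores and 78.5% in melanophores.

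Where edges moved by at least 100 bp, outward shifts outnumbered inward ones. An outward shift means that the mean level set for an edge was first reached further from the run. DNA inside an edge can be partly methylated, so the shifts do not show that the unmethylated stretch was longer. In the first 100 bp outside the border the mean level was above that of late NCCs, by 1.02 points in iridophores and 0.670 points in melanophores. In iridophores 2795 sides (6.99%) had an edge further out than in late NCCs and 2194 (5.49%) further in. In melanophores 2596 (6.49%) were further out and 2061 (5.16%) further in. In late NCCs 2189 (5.48%) were further out than in early NCCs and 1459 (3.65%) further in. Between iridophores and melanophores the counts were near equal, with 1860 further out and 1762 further in. In all 12 alternative settings run on edges the outward count stayed above the inward count in each of these comparisons.

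The balance varied with the length of the run, up to 9 tiles. Beside runs of 1 tile, 965 sides were further out and 944 further in for iridophores against late NCCs, and 855 and 855 for melanophores. Beside runs of 4 to 9 tiles, 9.16% of sides were further out and 4.94% further in for iridophores, and 8.87% and 4.51% for melanophores. At tile 1 beside 1-tile runs the mean difference from late NCCs was 0.433 points in iridophores and 0.261 points in melanophores. Beside runs of 2 or 3 tiles it was -1.50 and -1.39 points, and beside runs of 4 to 9 tiles it was -2.36 and -2.68 points. Losses at tile 1 were found in 3.02% of tiles in iridophores and 2.91% in melanophores beside 1-tile runs, and in 7.70% and 7.51% beside runs of 4 to 9 tiles. The mean level at tile 1 in early NCCs was 50.0% beside 1-tile runs and 62.5% beside runs of 4 to 9 tiles, so starting level differed between these classes too. Runs of 10 tiles or more did not continue this order. At their 42 tiles at tile 1 the mean difference was 3.59 points in iridophores and 0.744 points in melanophores, with gains in 4 tiles in iridophores and 2 in melanophores, and of their 82 sides 4 were further out and 6 further in for iridophores, and 7 and 4 for melanophores.

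**Figure D5:**
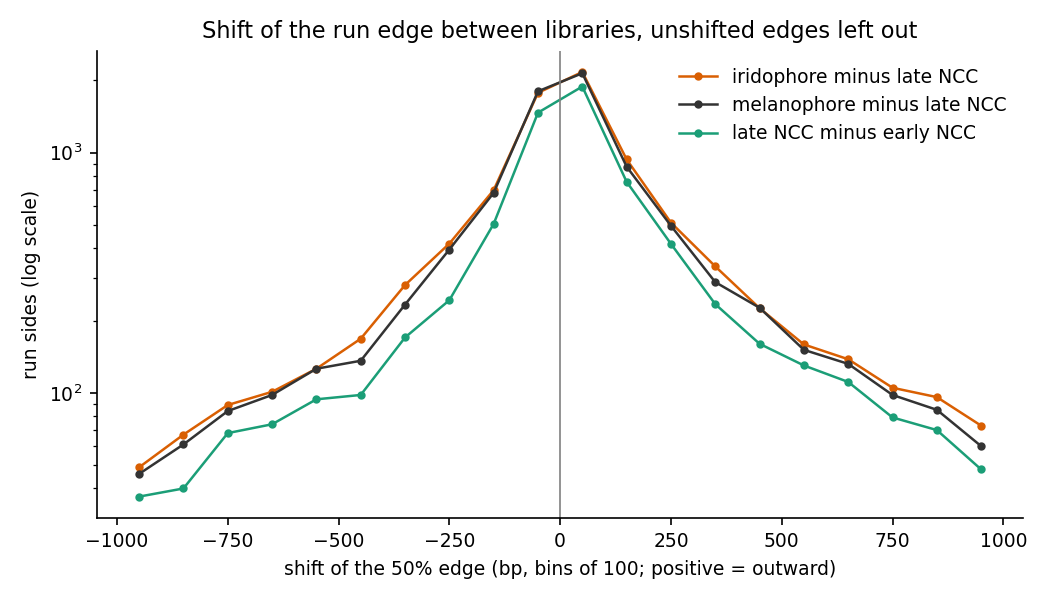
Number of run sides (log scale) by the shift of the 50% edge in bins of 100 bp, positive meaning outward, for iridophores minus late NCCs, melanophores minus late NCCs and late NCCs minus early NCCs. Sides with the same edge CpG in both libraries are left out. Each curve is higher on its outward side than on its inward side at the same distance for shifts of 100 to 300 bp.

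The 333 tiles at tile 1 that were equally close to a pair of runs had a mean level of 30.6% in iridophores, 28.3% in melanophores, 26.7% in late NCCs and 26.4% in early NCCs. Gains over late NCCs were found in 24 of them in iridophores (7.21%, 4.89 to 10.5%) and in 8 in melanophores (2.40%, 1.22 to 4.67%). Losses were found in 6 in iridophores (1.80%) and in 9 in melanophores (2.70%). For all of tile 1, gains were 2.66% and 1.93% and losses were 4.16% and 4.05%, in the same order. A tile here below the run threshold in every library would have joined the pair of runs. Low tiles are thus present only where some library reached that threshold. These shares were not matched for starting level. Over all 967 shore tiles equally close to a pair of runs, at any distance, the mean level was 60.4% in iridophores, 59.1% in melanophores, 59.5% in late NCCs and 60.05% in early NCCs. The lower-coordinate and higher-coordinate sides of runs were much alike, with gains in 2.54% and 2.63% of tiles at tile 1 in iridophores.

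The sides of a run were also compared with each other. Of 4006 runs with a level at tile 1 on both sides, 210 had a gain in iridophores on at least 1 side and 15 on both, and 155 had a gain in melanophores on at least 1 side and 4 on both. Losses were found on at least 1 side in 326 runs in iridophores and 328 in melanophores, and on both sides in 12 and 10. A gain on 1 side with a loss on the other was found in 9 runs in iridophores and 5 in melanophores. For comparison, gains over all of tile 1 were 2.66% in iridophores and 1.93% in melanophores, and losses were 4.16% and 4.05%.

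CpG number went with the direction of the difference. At tile 1 with 3 to 5 CpGs the mean difference from late NCCs was -1.55 points in iridophores and -1.31 points in melanophores. At tile 1 with more than 20 CpGs, 441 tiles, it was 2.59 points in iridophores and 1.94 points in melanophores. These CpG-dense tiles had a mean level of 39.5% in early NCCs, against 61.3% for tiles with 3 to 5 CpGs. At outside tiles with more than 20 CpGs the mean difference was -1.62 points in iridophores and -1.45 points in melanophores.

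Individual shore tiles were named by the size of their change among the 52767 with at least 5 CpGs and 100 reads in each library. Positions are on danRer10, with the tables' start column taken as counting from 0. The value of each tile is the mean level of its CpGs, and no gene is given for them, because no annotation of this build was used. Their largest losses were found at tiles 2 to 4, where levels start high.

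The largest loss in iridophores lay on chromosome 14 at 42628501 to 42629000, at tile 4 of a 9-tile run. Its level was 8.51% in iridophores and 74.6% in melanophores, against 99.1% in late NCCs and 93.9% in early NCCs. On chromosome 25 at 34159001 to 34159500 the level was 7.23% in iridophores and 62.2% in melanophores, against 96.4% in late NCCs and 97.3% in early NCCs. Both tiles were low in iridophores alone, with melanophores in between. On chromosome 1 at 4789001 to 4789500, tile 2 of a 1-tile run, the level was 6.69% in iridophores and 84.6% in melanophores, against 93.9% in late NCCs and 92.0% in early NCCs. This was also the largest loss of iridophores relative to melanophores, and 9 of 114 iridophore reads over its 6 CpGs were methylated (7.89%, 4.21 to 14.3%). On chromosome 5 at 32176001 to 32176500 both pigment cells were low, at 9.31% in iridophores and 16.8% in melanophores, against 95.6% in late NCCs and 97.0% in early NCCs. The remaining tiles among the 6 largest losses in iridophores lay on chromosomes 4 and 21, at 5.41% and 12.6% in iridophores.

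The largest loss in melanophores lay on chromosome 8 at 29719001 to 29719500, tile 2 of a 3-tile run. Its level was 4.08% in melanophores and 10.03% in iridophores, against 89.3% in late NCCs and 96.8% in early NCCs. On chromosome 13 at 22934501 to 22935000 the level was 14.3% in melanophores and 67.2% in iridophores, against 98.4% in late NCCs and 97.9% in early NCCs. The first of these was low in both pigment cells and the second mainly in melanophores. Adjacent tiles of 1 shore on chromosome 19 were low in melanophores. At 33354001 to 33354500 the level was 13.6% in melanophores and 30.6% in iridophores, against 95.1% in late NCCs and 99.3% in early NCCs. The next tile towards the run, at 33354501 to 33355000, was at 17.6% in melanophores and 81.0% in iridophores, against 97.7% in late NCCs and 97.6% in early NCCs, the largest gain of iridophores over melanophores. The pigment cells therefore differed in how far this low stretch reached. The remaining 3 tiles of the list lay on chromosomes 14, 19 and 16, at 6.35%, 6.76% and 11.6% in melanophores.

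The largest gain was the same tile in both pigment cells, on chromosome 19 at 7253501 to 7254000, tile 2 of a 2-tile run. Its level was 80.2% in iridophores and 70.2% in melanophores, against 13.9% in late NCCs and 34.4% in early NCCs. On chromosome 24 at 16997001 to 16997500 the level was 61.3% in iridophores and 35.4% in melanophores, against 1.19% in late NCCs and 0.926% in early NCCs. On chromosome 25 at 35771501 to 35772000 it was 58.6% in iridophores and 60.1% in melanophores, against 7.68% in late NCCs and 9.64% in early NCCs. These 2 tiles were unmethylated at both NCC stages, as runs are, and failed the rule through the pigment cells alone. On chromosome 19 at 6385501 to 6386000, tile 1 of a 6-tile run, the level was 68.6% in iridophores and 67.5% in melanophores, against 16.6% in late NCCs and 25.6% in early NCCs. On chromosome 22 at 6594501 to 6595000 it was 77.6% in iridophores and 86.5% in melanophores, against 35.4% in late NCCs and 43.1% in early NCCs.

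Among the tiles named for iridophores against melanophores, on chromosome 15 at 23482001 to 23482500, tile 1 of a 5-tile run, the level was 83.6% in iridophores and 23.9% in melanophores, with 83.9% in late NCCs and 95.4% in early NCCs. On chromosome 7 at 73943001 to 73943500 the level was 97.1% in iridophores and 38.5% in melanophores, with 95.6% in late NCCs and 96.7% in early NCCs. On chromosome 3 at 61886501 to 61887000 the reverse was seen, with 13.7% in iridophores and 86.6% in melanophores, 88.3% in late NCCs and 92.5% in early NCCs. On chromosome 11 at 443001 to 443500 the level was 17.4% in iridophores and 87.9% in melanophores, with 98.1% in late NCCs and 96.2% in early NCCs. In each of these tiles 1 pigment cell type stayed within 15 points of both NCC stages.

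Between the NCC stages, the largest loss lay on chromosome 3 at 23428001 to 23428500. Its level was 21.2% in late NCCs, against 70.1% in early NCCs, and the pigment cells were at 1.81% (iridophores) and 2.06% (melanophores). On chromosome 2 at 24884001 to 24884500 the level was 23.9% in late NCCs, against 69.0% in early NCCs, and the pigment cells were at 0.379% (iridophores) and 1.66% (melanophores). Both tiles were part of the way down at 24 hpf and unmethylated in the pigment cells. The third, on chromosome 14 at 2872001 to 2872500, was at 46.9% in late NCCs, against 92.0% in early NCCs, and the pigment cells were at 36.1% (iridophores) and 23.6% (melanophores). The largest gain in late NCCs lay on chromosome 16 at 14795001 to 14795500, at 60.7% in late NCCs, against 2.29% in early NCCs, and the pigment cells were at 36.5% (iridophores) and 37.4% (melanophores). On chromosome 8 at 15265001 to 15265500 the level was 54.1% in late NCCs, against 14.6% in early NCCs, and the pigment cells were at 67.2% (iridophores) and 64.1% (melanophores). On chromosome 11 at 24477501 to 24478000 it was 68.2% in late NCCs, against 27.7% in early NCCs, and the pigment cells were at 60.3% (iridophores) and 64.9% (melanophores).

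The 5 largest outward shifts of an edge in both pigment cells ran from 1748 to 2006 bp. On chromosome 11, left of the run at 3635001 to 3635500, the edge lay at 2062 bp in both pigment cells, against 56 bp at both NCC stages. On chromosome 9, right of the run at 12840001 to 12841000, it lay at 1932 bp in both pigment cells, against 58 bp inside the border at both NCC stages. On chromosome 6, right of the run at 11641001 to 11641500, it lay at 1947 bp against 102 bp. On chromosomes 10 and 19 the shifts were 1752 and 1748 bp. In these 5 places the 50% level was first reached near the outer end of the shore in pigment cells.

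Genes could be named at 8 regions only. A list of 48 regions within 50 kb of 20 iridophore genes, given with the study on danRer10, overlapped 13 shore tiles beside 6 genes. The study chose these regions for changed methylation, changed accessibility or both in these samples, so their direction is not independent evidence. All 13 tiles had a lower level in iridophores than in late NCCs and than in melanophores. Of all shore tiles, 64.2% were lower in iridophores than in late NCCs and 52.9% lower than in melanophores. Over all tiles outside runs these shares were 71.3% and 55.5%. Losses of at least 20 points from late NCCs were found in 8 of the 13 tiles in iridophores and 2 in melanophores. Such losses were found in 5.13% and 5.20% of all shore tiles, and in 4.90% and 4.86% of all tiles outside runs. Iridophores reflect light with crystals of guanine, and most of these genes belong to the routes that supply purines and their precursors. The study took the genes of the list from the gene function terms most enriched in iridophores. Their shared function was thus set by the list and is not a result of the shores.

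Among them is adka, which encodes adenosine kinase, an enzyme that turns adenosine into AMP. Its shore on chromosome 13, left of a 3-tile run, was low in iridophores over 3 adjacent tiles. At 25066501 to 25067000, tile 2, the level was 7.74% in iridophores and 56.8% in melanophores, against 96.5% in late NCCs and 97.5% in early NCCs, over 3 CpGs and 86 iridophore reads. At 25066001 to 25066500, tile 3, it was 12.7% in iridophores and 80.01% in melanophores, against 96.5% in late NCCs and 97.0% in early NCCs. At 25065501 to 25066000, tile 4, it was 50.2% in iridophores and 84.5% in melanophores, against 73.6% in late NCCs and 87.5% in early NCCs. Tile 1 of this shore is not among the overlapping tiles. Of these 3 tiles, the iridophore level was lowest at tile 2 and highest at tile 4, and melanophores were intermediate at tile 2.

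The serine pathway supplies one-carbon units and glycine for purine synthesis, and the genes of its 3 steps each had a shore tile. The psat1 gene, which encodes phosphoserine aminotransferase, had 3. On chromosome 5 at 68753001 to 68753500 the level was 35.8% in iridophores and 56.1% in melanophores, against 93.4% in late NCCs and 92.8% in early NCCs. At 68725501 to 68726000 it was 52.5% in iridophores and 90.7% in melanophores, against 95.6% in late NCCs and 96.2% in early NCCs. At 68728501 to 68729000, on the other side of the same 4-tile run, it was 71.5% in iridophores and 78.8% in melanophores, against 88.1% in late NCCs and 87.2% in early NCCs. That tile shared only 103 bp with its listed region. The psph gene, which encodes phosphoserine phosphatase, had 3 tiles around a 2-tile run on chromosome 15. At 509501 to 510000, tile 1, the level was 4.21% in iridophores and 10.7% in melanophores, against 21.3% in late NCCs and 21.6% in early NCCs. The share of methylated reads in that tile was 2.76% in iridophores, 6.71% in melanophores, 11.2% in late NCCs and 10.6% in early NCCs. By reads it was thus below 15% in all 4 libraries. The other 2 were at 72.9% and 74.4% in iridophores, 82.3% and 78.8% in melanophores, 90.5% and 83.1% in late NCCs and 96.6% and 78.3% in early NCCs. They shared only 20 and 141 bp with the listed region, in the same order. None of the psph tiles passed 20 points. The phgdh gene, which encodes phosphoglycerate dehydrogenase, had a tile of 4 CpGs on chromosome 9 that shared only 119 bp with the listed region, at 66.5% in iridophores and 72.5% in melanophores, against 67.6% in late NCCs and 67.2% in early NCCs.

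The other genes were hprt1l and pck2. The hprt1l gene is named for hypoxanthine phosphoribosyltransferase, the purine salvage enzyme. On chromosome 25 at 36510501 to 36511000 the level was 28.9% in iridophores and 71.6% in melanophores, against 81.2% in late NCCs and 76.0% in early NCCs. The pck2 gene encodes the mitochondrial phosphoenolpyruvate carboxykinase. On chromosome 24 at 12792001 to 12792500 the level was 24.6% in iridophores and 72.2% in melanophores, against 92.0% in late NCCs and 96.2% in early NCCs, and in the adjacent tile it was 32.3% in iridophores and 65.8% in melanophores, against 69.5% in late NCCs and 69.4% in early NCCs.

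Within tiles, most called differences kept their sign on alternate CpGs, but many gains did not reach the call size again. Shore tiles were called on their odd-numbered CpGs and the difference was then read on the even-numbered ones. Of 722 shore tiles called higher in iridophores than in late NCCs, 94.3% had the same sign on the other CpGs and 56.9% again passed 20 points, with a median of 22.0 points. For 507 gains in melanophores these shares were 91.5% and 46.9%, and for losses they were 97.3% and 69.5% in iridophores and 97.7% and 73.0% in melanophores. Of outside gains, 83.8% in iridophores and 82.8% in melanophores kept their sign, and 43.4% and 39.9% again passed 20 points. Calls between the NCC stages were repeated less often. Of 204 shore gains in late over early NCCs, 84.8% kept their sign and 35.3% again passed 20 points, with a median of 14.4 points. For 482 shore losses these shares were 92.7% and 50.2%. Outside, 26.1% of such gains and 46.7% of such losses again passed 20 points. Neighbouring CpGs share reads, so this compares CpGs of the same molecules and is not a replicate.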

How the data were processed

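WGBS reads were trimmed by the authors with Cutadapt, mapped to danRer10 with Bismark, cleared of duplicates with Picard MarkDuplicates and summarised per CpG with the Bismark extractor and a custom script, with versions not given in the sources used here. Per CpG, the authors deposited a methylation level (fraction of methylated reads) and an unnormalized read count, with the replicates of each cell type combined.

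Levels of CpGs were averaged per tile. A tile without a level ended a run, and a tile near several runs was assigned to the nearest. Methylated reads (level times reads, within 0.0044 of a whole number) gave Wilson 95% intervals, which can be too narrow since reads span several CpGs. Two-sided Fisher exact tests of reads (Benjamini-Hochberg over all tiles) served as an alternative call rule only and compare libraries. Named tiles were the largest changes among tiles with at least 5 CpGs and 100 reads in each library (6 losses and 3 gains for each pigment cell, 3 each way otherwise, neighbouring tiles of 1 shore counted once), plus the 5 largest outward edge shifts. The members, lists and tests were chosen with earlier results of these data known. Alternatives covered read and CpG minimum, run threshold and length, tile level and offset, distance, coverage, chromosome 4, call size and edge level. Scripts were tested on simulated data and ran in Python 3.11.15 with numpy 2.4.6, pandas 2.3.3 and scipy 1.17.1. RNA-seq and ATAC-seq were not used here.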

Additional observations from a re-analysis of the deposited data

Results flagged for a closer look

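At 1 shore tile with at least 5 CpGs and 100 reads in each library, the pigment cells moved in opposite directions from late NCCs. On chromosome 9 at 2192501 to 2193000, tile 1 of a 1-tile run with 12 CpGs, the difference from late NCCs was -25.8 points in iridophores and 21.3 points in melanophores. The level was 26.7% in iridophores and 73.8% in melanophores, against 52.5% in late NCCs and 67.6% in early NCCs. The share of methylated reads was 21.6% in iridophores (17.6 to 26.2%), 74.5% in melanophores (70.8 to 77.8%), 53.2% in late NCCs (48.4 to 57.9%) and 68.9% in early NCCs (62.5 to 74.7%), over 219 to 595 reads. The difference was not tested, since each cell type has 1 library. Over all 88746 shore tiles, 5 had opposite changes of at least 20 points.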

How the results depend on the processing

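No paired analysis was possible because the deposited tables combine the replicates of each cell type, and for the same reason no replicate could be left out. The share of gains at tile 1 stayed above that of outside tiles in all 16 settings run, by 5.74 to 10.7 times in iridophores, 4.96 to 8.77 times in melanophores and 3.52 to 6.75 times in late against early NCCs. All of these settings kept low tiles out of shores and outside tiles, and none matched starting level. With runs of at least 2 tiles, single low tiles were left out rather than joined to a run. With outside tiles weighted to the early NCC levels of tile 1, the order turned round in the pigment cells. Gains were then 2.66% at tile 1 against 5.62% outside in iridophores, and 1.93% against 4.43% in melanophores. Losses at tile 1 turned more frequent than outside in 3 of 16 settings in each pigment cell. Tiles low in the NCC pair only outnumbered those low in the pigment pair only in all 13 settings run, by 1.53 to 2.13 times. A tile of either pattern is outside a run only through the other pair of libraries, so nothing is read from these counts beyond their size. The mean of iridophores minus melanophores at tile 1 reversed to -0.0206 points with runs below 20%, -0.0594 with CpG medians, -0.0323 with runs of at least 2 tiles and -0.217 with distance over measured tiles.

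Counts of shore tiles moved by more than 1.5 times in 49 of 128 cases, in several of which the number of shore tiles moved too (59261 with 5 CpGs, 140831 with distance over measured tiles, against 88746). With at least 10 reads per CpG, gains were 506 in melanophores and late NCCs against early NCCs gave 530 losses and 185 gains. With 3 reads, late NCCs had 631 gains. With at least 5 CpGs, losses and gains were 2714 and 661 in iridophores, 2859 and 438 in melanophores, 410 and 156 in late NCCs, and 726 and 852 for iridophores against melanophores. With CpG medians, gains were 2184 in iridophores and 1929 in melanophores, losses and gains were 2014 and 1209 in late NCCs, and 2636 and 2717 for iridophores against melanophores. With runs of at least 2 tiles, gains were 691, 506 and 229 in iridophores, melanophores and late NCCs. With distance over measured tiles, losses were 7522 in iridophores and 7622 in melanophores, and iridophores against melanophores gave 2305 losses and 2279 gains. When tiles were found on odd CpGs and measured on even ones, losses were 2619 in iridophores, 2751 in melanophores and 522 in late NCCs, gains were 526 in melanophores, and iridophores against melanophores gave 753 losses and 866 gains. At 30 points, losses and gains were 2511 and 296 in iridophores, 2499 and 214 in melanophores, 190 and 79 in late NCCs, and 580 and 484 for iridophores against melanophores. At 10 points they were 11370 and 4303, 10666 and 3913, 4494 and 2480, and 4718 and 4577 in the same order. With the Fisher test added, late NCCs had 528 losses and 183 gains. The cause was not tested where the number of tiles does not give it. Depth limits single CpGs, whose median coverage was 17 to 29 reads.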

Other observations

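In fixed windows of 200 kb, chosen after the values were seen, 19 windows with at least 5 shore tiles higher in iridophores than in late NCCs held 152 of the 1118 such tiles, and 794 of 5584 windows with a shore tile held at least 1. The number of shore tiles differed between windows and was not matched. Over all shore tiles, gains were 1.26% in iridophores and 0.952% in melanophores, and losses in iridophores were 5.13%. Over all tiles outside runs these shares were 0.355%, 0.303% and 4.90%. The window on chromosome 10 at 21600001 to 21800000 had 15 gains and 0 losses in iridophores among 89 shore tiles, and 3 gains in melanophores. Its median shore level was 31.3% in iridophores and 23.7% in melanophores, against 17.1% in late NCCs and 16.3% in early NCCs. Any of its tiles below 15% at both NCC stages counted as shore only through a pigment cell library. On chromosome 3 at 23600001 to 23800000, 10 of 41 shore tiles were gains in iridophores and 1 in melanophores, with a median shore level of 25.3% in iridophores and 18.8% in melanophores, against 4.77% in late NCCs and 4.76% in early NCCs. At such NCC levels a tile counts as shore mainly because a pigment cell library reached 15%, so the members of this window were selected through the cells in which they are high. On chromosome 24 at 16800001 to 17000000, 14 of 71 shore tiles were gains in iridophores and 4 in melanophores, although the median shore level was 83.2% in iridophores and 85.3% in melanophores, against 88.7% in late NCCs and 87.0% in early NCCs. The median is over all 71 shore tiles of the window, and the tiles around the 14 gains were not summarised separately. A gain in this window, at 16997001 to 16997500, was at 1.19% in late NCCs and 0.926% in early NCCs. These windows were picked for their number of gains in iridophores, and others were mixed. On chromosome 12 at 34600001 to 34800000 there were 10 gains and 7 losses in iridophores among 46 shore tiles. On chromosome 14 at 2000001 to 2200000 there were 8 gains in each pigment cell and 3 losses in iridophores among 82 shore tiles.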
